A study of Mus musculus with 4 samples.

Results

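Primary hepatocytes of Drp1LiKO mice given palmitate were compared with control hepatocytes given palmitate, across every gene measured on both arrays. Of 37072 gene names on the microarray, 16784 had a probe well above background on both palmitate arrays, and these are the genes described here. Each gene was read from 1 probe, the one with the highest mean over the study's 4 arrays. The 2 palmitate arrays lay on 1 slide and held 1 sample each, so the difference between them has no replicate and no p-value could be given. A gene is called higher or lower below when its signal differed at least 2-fold, which is at least 1 on the log2 scale.

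Drp1LiKO hepatocytes came from Alb-Cre Tg/+ Drp1 flox/flox mice, which lack the fission GTPase Drp1 (gene Dnm1l) in cells where the albumin promoter drives Cre. Control hepatocytes came from Drp1 flox/flox sibling littermates, labelled as wild-type, so both groups carried the floxed alleles. All animals were male and the labels give C57BL/6 as the strain. Because Cre follows the albumin promoter, macrophages, endothelial cells and other liver cells that remain in a hepatocyte preparation would keep Drp1. Hepatocytes were collected by low-speed centrifugation, seeded and harvested after 24 h, and both groups described here received 200 μM palmitate. The remaining pair of arrays held untreated hepatocytes of the same genotypes on another slide, so palmitate and slide cannot be told apart. How many animals contributed to each array and their age were not given in the sources used here.

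Drp1 is a cytosolic GTPase that is recruited to the outer mitochondrial membrane, forms a ring around the organelle and constricts it until it divides. Palmitate is a saturated fatty acid that hepatocytes oxidize or store as triglyceride, and that in excess is known to stress the endoplasmic reticulum. Interferons act through STAT and IRF factors that bind interferon-stimulated response elements in promoters, and genes of mitosis are commonly controlled through CHR and CCAAT elements. Retinoic acid receptors bind direct repeats, and retinoic acid induces the CYP26 enzymes that clear it.

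The promoters of genes from the interferon effector, cell division and retinoid lists are shown for reading beside the values below. They are the 250 bases before the RefSeq start site in build GRCm38.p6, written 5′ to 3′ on the strand of the gene, with capitals marking the motif matches. The motifs were chosen after the values were seen and were searched on both strands, with overlapping matches joined in 1 run of capitals. They were GAAA followed by GAAA with 2 bases of any kind between them for the interferon-stimulated response element, ISRE (Ifit3b, Oas1g, Rsad2 and Isg15), TTTGAA for the CHR (Ube2c), and GTTCA followed by AGTTCA with 5 bases of any kind between them for the retinoic acid DR5 element (Cyp26a1 and Rarb).
Ifit3b (chr19:34607707-34607956, plus strand): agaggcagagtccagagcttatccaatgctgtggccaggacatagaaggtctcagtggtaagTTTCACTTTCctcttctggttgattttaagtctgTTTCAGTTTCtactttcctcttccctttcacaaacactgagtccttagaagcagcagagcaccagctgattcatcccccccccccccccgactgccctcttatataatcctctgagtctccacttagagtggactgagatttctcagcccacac
Oas1g (chr5:120887614-120887863, minus strand): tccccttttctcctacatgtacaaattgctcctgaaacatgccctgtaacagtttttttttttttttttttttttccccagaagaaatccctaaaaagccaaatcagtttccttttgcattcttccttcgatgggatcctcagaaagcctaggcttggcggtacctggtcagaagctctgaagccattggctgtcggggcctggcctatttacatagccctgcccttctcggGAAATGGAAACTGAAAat
Rsad2 (chr12:26456453-26456702, minus strand): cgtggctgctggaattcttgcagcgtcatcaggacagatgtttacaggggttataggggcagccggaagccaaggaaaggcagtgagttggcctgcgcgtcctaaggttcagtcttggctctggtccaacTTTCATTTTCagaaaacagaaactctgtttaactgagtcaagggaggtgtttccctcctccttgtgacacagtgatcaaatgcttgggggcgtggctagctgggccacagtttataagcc
Isg15 (chr4:156200819-156201068, minus strand): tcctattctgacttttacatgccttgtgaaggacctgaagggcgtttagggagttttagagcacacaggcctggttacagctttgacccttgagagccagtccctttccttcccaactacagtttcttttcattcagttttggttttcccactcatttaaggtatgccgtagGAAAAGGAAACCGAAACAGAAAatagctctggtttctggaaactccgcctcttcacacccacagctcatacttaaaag
Ube2c (chr2:164769679-164769928, plus strand): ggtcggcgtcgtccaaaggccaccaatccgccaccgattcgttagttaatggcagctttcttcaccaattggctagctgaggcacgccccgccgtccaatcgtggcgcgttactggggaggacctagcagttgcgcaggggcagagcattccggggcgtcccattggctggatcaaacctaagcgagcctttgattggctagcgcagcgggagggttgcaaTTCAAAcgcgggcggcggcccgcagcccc
Cyp26a1 (chr19:37697558-37697807, plus strand): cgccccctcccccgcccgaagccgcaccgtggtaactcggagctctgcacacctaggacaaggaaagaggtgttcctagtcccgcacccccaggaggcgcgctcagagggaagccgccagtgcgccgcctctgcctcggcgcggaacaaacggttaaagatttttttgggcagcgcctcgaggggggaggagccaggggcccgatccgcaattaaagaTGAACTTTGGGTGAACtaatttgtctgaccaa
Rarb (chr14:16575477-16575726, minus strand): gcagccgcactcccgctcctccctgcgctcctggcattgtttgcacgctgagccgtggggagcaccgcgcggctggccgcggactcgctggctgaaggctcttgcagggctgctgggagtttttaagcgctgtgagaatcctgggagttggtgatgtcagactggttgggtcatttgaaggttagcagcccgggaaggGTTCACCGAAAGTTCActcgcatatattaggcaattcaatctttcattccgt

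The match nearest the start site began 154 bases before it in Ifit3b, 12 in Oas1g, 120 in Rsad2, 66 in Isg15, 29 in Ube2c, 32 in Cyp26a1 and 52 in Rarb. The ISRE letters stood in 2.98% of all 32851 RefSeq promoter windows of this length, in 19 of 48 windows of the interferon effector list (39.6%) and in 10 of 12 of the interferon-inducible GTPases (83.3%). These windows covered 39 of the 52 listed effectors and 11 of the 20 listed GTPases. Those of the cell division and DNA replication lists covered 56 of 67 and 51 of 64 genes. Listed genes without a window were left out of the shares. A TTTGAA match can share bases with an ISRE match. TTTGAA stood in 16% of all windows and in 23 of 62 of the cell division list (37.1%), and CCAAT in 33.8% and 69.4%. In the DNA replication list the shares were 13.6% for TTTGAA and 55.9% for CCAAT, and the ISRE letters stood in 18.8% of windows of the interferon sensing list. The DR5 letters were rare, standing in 9 of all windows (0.0274%). In the retinoid list they stood in 2 of 48 windows (4.17%), the Cyp26a1 and Rarb windows shown. The windows of that list covered 32 of 39 genes. The same windows of Oasl2, Casp4 and Il6 held no ISRE letters, those of Ttk, Birc5 and Cdca3 no TTTGAA, and those of Cyp26b1 and Dhrs3 no DR5 letters. A match is a description of letters, not a binding site or a cause, and a window without a match says nothing about the factor.

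Of the 16784 genes, 519 were higher in Drp1LiKO hepatocytes (3.09%) and 414 were lower (2.47%), so that 5.56% differed in either direction. Large differences lay mostly on the higher side, with 129 genes at least 4-fold higher against 44 lower, and 24 at least 8-fold higher against 5 lower. Most genes differed little: 85.7% lay within 1.5-fold, the quartiles of the log2 difference were -0.23 and 0.17 and the median was -0.05. With each array centred on its median in place of its 75th percentile, the median difference of all genes became -0.19 and the calls split into 403 higher and 560 lower, so the share of calls on the higher side was 55.6% in the scaling used here and 41.8% in that one. Dim genes were called more often, with 9.60% of the dimmest 4196 genes past 2-fold against 1.98% of the brightest 4196. Technical scatter within an array was small beside a 2-fold difference for probes clear of background. Of 300 probes printed 10 times each, those with all 10 spots well above background gave a median spot SD of 0.0364 (log2). This does not cover probes nearer background, or variation between cultures or animals. Where a called gene had another measured probe, that probe had the same sign in 94 of 106 cases for higher genes and 108 of 117 for lower genes, and itself passed 2-fold in 76 and 61.

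**Figure D1:**
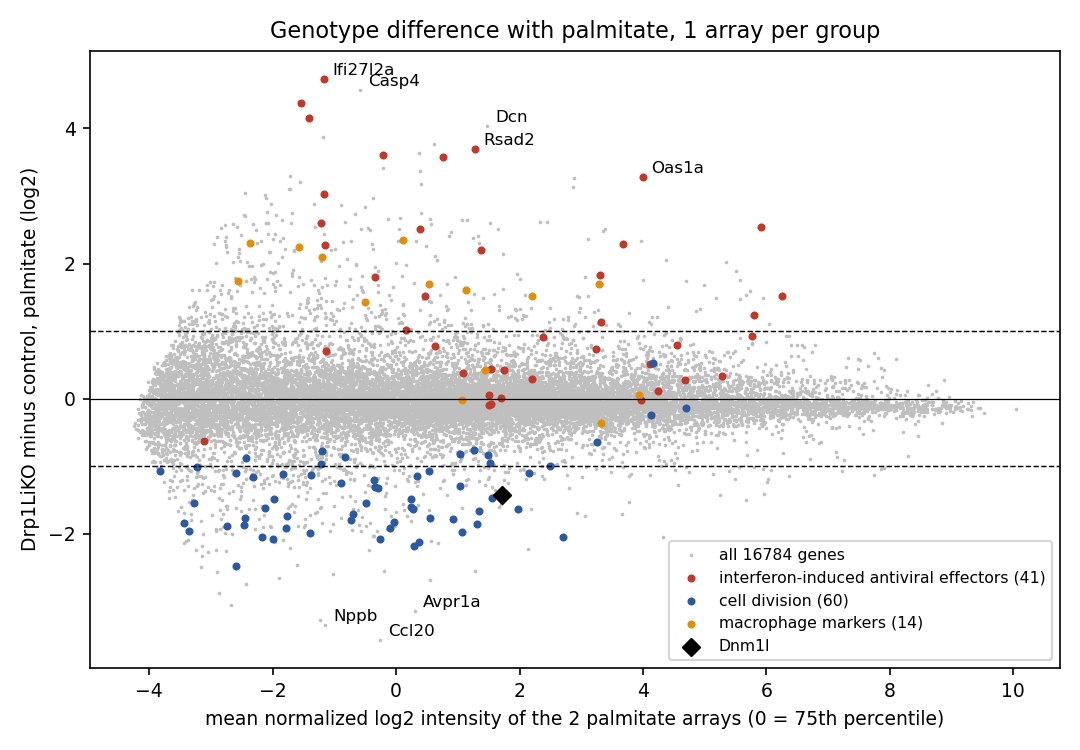
Each point is 1 of 16784 genes; the x axis is the mean normalized log2 signal of the 2 palmitate arrays, the y axis is the log2 difference of Drp1LiKO minus control with palmitate, and dashed lines mark 2-fold. Interferon effectors (red, 41 genes) spread upward to 4.73, cell division genes (blue, 60 genes) lie below 0 in all but 1 case, macrophage markers (orange, 14 genes) lie above 0 for the most part, and Dnm1l (diamond) lies at -1.42.

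The targeted gene was lower in the Drp1LiKO samples. Dnm1l, read by a probe at chr16:16312363-16312422 on the minus strand (mm9 coordinates of the array files), had a normalized log2 signal of 2.43 in control and 1.01 in Drp1LiKO hepatocytes with palmitate, and 2.42 and 1.07 on the untreated slide. Both Drp1LiKO samples were therefore below both controls, by 2.68-fold with palmitate. Which exon is deleted was not given in the sources used here, so it is unknown whether the probe lies in the deleted part, and in bulk RNA fewer cells of a type cannot be told apart from less RNA per cell. Of 22 measured genes of mitochondrial fission and fusion, Dnm1l was the only one past 2-fold, with the list's median at 0.03 and its range from -1.42 to 0.62. The upper end was Mtfp1, a mitochondrial fission process protein, and the receptor Mief2, which recruits Drp1, differed by -0.30 and the protease Oma1, which cleaves OPA1, by -0.44.

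Interferon-induced antiviral genes led the higher side, with 7 of the 15 largest positive differences among named genes. The list held 52 genes, of which 41 were measured on both palmitate arrays and 7 more were above background on the Drp1LiKO array alone. Over all genes, 1612 were above background on the Drp1LiKO array alone and 480 on the control array alone. Of the 41, 21 were higher (51.2%, against 3.09% of all genes) and 0 lower, with a median difference of 1.01 and a range from -0.63 to 4.73. Ifi27l2a, a small interferon-induced membrane protein, had the largest difference of all named genes, with a signal of -3.53 in control and 1.20 in Drp1LiKO hepatocytes with palmitate, and -3.69 and 1.38 without. Both Drp1LiKO samples were high and both controls low, a difference of 26.6-fold with palmitate.

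The 2′-5′ oligoadenylate synthetases, which make the activator of RNase L on sensing double-stranded RNA, differed strongly. Oas1a had 2.36 in control and 5.64 in Drp1LiKO hepatocytes with palmitate (9.70-fold) and 0.99 and 5.08 on the untreated slide. Oas1g had -3.72 and 0.65 with palmitate (20.7-fold), and the related Oasl2 -1.03 and 2.55 (12.0-fold). For all 3 genes the pair of Drp1LiKO samples lay above the pair of controls, and Oas1 paralogs are similar enough that a probe may read more than 1 of them. Oas2 and Oas3 were above background on the Drp1LiKO array alone, at least 12.4-fold and 5.36-fold higher.

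The IFIT proteins, which bind foreign RNA lacking host-type caps, differed in the same way. Ifit3b, whose promoter is shown above, had signals of -3.50 and 0.66 (17.8-fold) and its close paralog Ifit3 of -2.02 and 1.59 (12.2-fold), although these probes may not separate the paralogs. Rsad2, the radical SAM enzyme viperin, had -0.57 in control and 3.13 in Drp1LiKO hepatocytes with palmitate and -2.45 and 2.98 without, so that the slides differed more in control than in Drp1LiKO. A second probe for Rsad2 gave 2.87 against 3.70 for the one used. Isg15, a ubiquitin-like modifier named here after its values were seen, had 2.53 and 4.82, a difference of 2.29. Mx1, the antiviral dynamin-like GTPase, Ifitm1, a blocker of viral entry, and the helicase Ddx60 were above background on the Drp1LiKO array alone, at least 2.44-fold, 3.51-fold and 2.28-fold higher.

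Genes that sense nucleic acid or transmit interferon signals differed less than the effectors. Of 28 measured, 7 were higher (25%, against 3.09% of all genes) and 1 was lower, with a median of 0.25. Irf7, the transcription factor that amplifies type I interferon, had 5.21 in control and 6.69 in Drp1LiKO hepatocytes with palmitate and 4.34 and 6.18 without, so both Drp1LiKO samples were above both controls. The DNA-sensing family members Ifi204 and Ifi205 were higher by 1.38 and 1.27. The gene that was lower encodes the cytosolic DNA sensor cGAS and is named Mb21d1 on the array, with -0.71 in control and -2.19 in Drp1LiKO. On the untreated slide it differed by -1.64. Phf11a and Phf11d, interferon-responsive PHD-finger genes outside this list, were among the 15 largest positive differences, at 3.87 and 3.76, and a probe may read both.

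Interferon-inducible GTPases, which coat pathogen vacuoles, had 4 of 14 measured members higher (28.6%, against 3.09% of all genes) and 0 lower, with a median of 0.79. Gbp3 was the largest, with -0.36 in control and 1.69 in Drp1LiKO, followed by Gbp6 at 1.58, Tgtp2 at 1.14 and Igtp at 1.07. For MHC class I presentation, 21 of 23 measured genes lay above 0 and 3 passed 2-fold (13.0%), around a median of 0.57. The nonclassical H2-T10 and H2-T22 were higher by 1.34 and 1.30, and Nlrc5, the transactivator of class I genes, by 1.03. The peptide transporter Tap1 differed by 0.92 and the light chain B2m by 0.57, both short of 2-fold. In MHC class II, 4 genes were measured and 6 were above background on neither array. Cd74, the invariant chain, was higher by 2.04 and Ctss, the protease cathepsin S that degrades it, by 2.73, while H2-Ab1 and H2-Eb1 differed by -0.28 and 0.28.

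**Figure D2:**
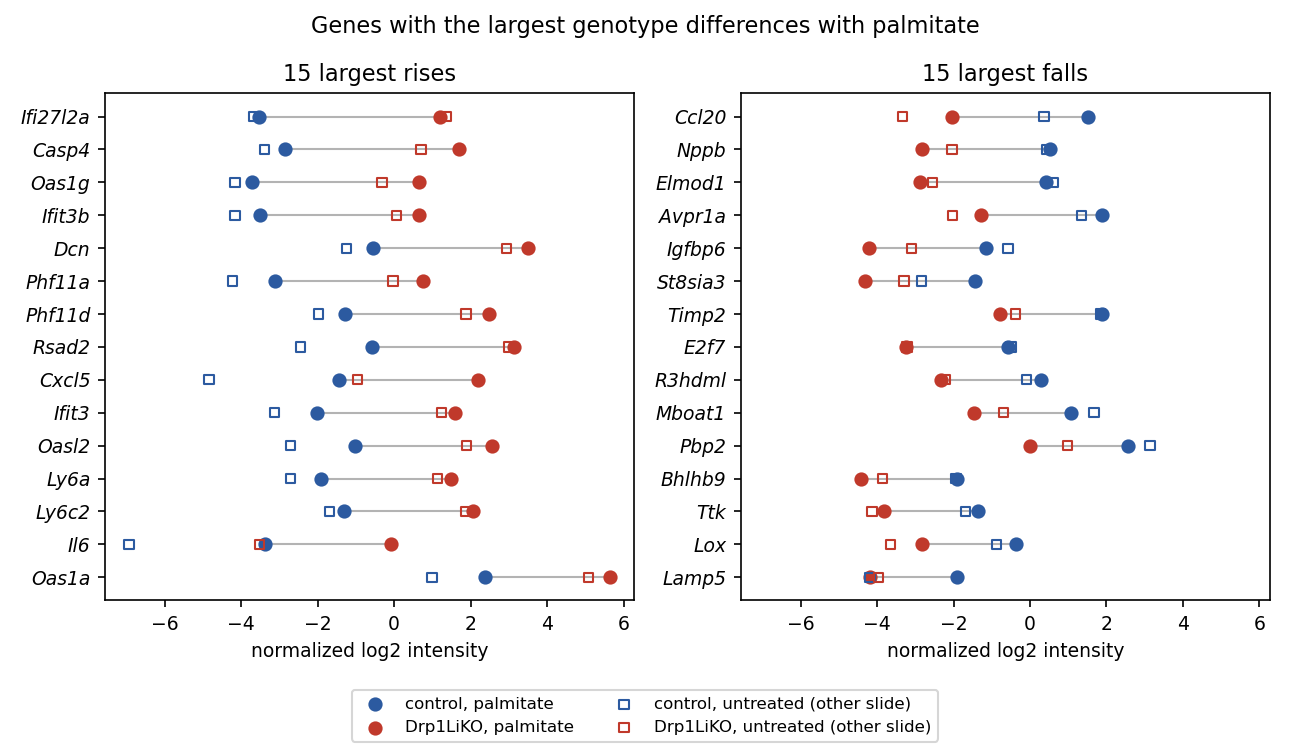
Normalized log2 signal (x axis) of the 15 named genes with the largest positive and the 15 with the largest negative difference, on all 4 arrays; filled circles are the palmitate slide, open squares the untreated slide, and colour marks genotype. For the genes with positive differences the Drp1LiKO samples lie right of the controls on both slides, whereas Lamp5 and St8sia3 at the lower side show a wide gap on the palmitate slide only.

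Chemokine ligands moved in both directions. Of 22 measured, 11 were higher and 3 lower (50% and 13.6%, against 3.09% and 2.47% of all genes), with a median of 0.95. A further 12 ligands were above background on neither array. Ccl5, which recruits T cells and monocytes, had 1.30 in control and 4.44 in Drp1LiKO hepatocytes with palmitate and 0.14 and 3.62 without, so both Drp1LiKO samples were high. Ccl4 was higher by 2.87 (2.67 in its other probe), and Cxcl5, a neutrophil attractant, by 3.64. The most negative difference of any named gene was Ccl20, the ligand of CCR6, with 1.53 in control and -2.04 in Drp1LiKO with palmitate and 0.37 and -3.34 without, 11.9-fold lower with palmitate. Ccl2, the monocyte attractant, was 2.06-fold lower, at 8.37 and 7.33. Ccl17 was above background on the control array alone.

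Cytokines and inflammatory enzymes had 6 of 19 measured genes higher and 1 lower (31.6% and 5.26%, against 3.09% and 2.47% of all genes), around a median of 0.36. Il6, an acute phase inducer, was 9.81-fold higher, with -3.37 in control and -0.07 in Drp1LiKO hepatocytes given palmitate. On the untreated slide it was at -3.52 in Drp1LiKO and not well above background in control, so its signal was highest in the Drp1LiKO palmitate sample. Il1b had -1.91 and 0.05, and Irg1 (now Acod1), which makes itaconate, -3.72 and -1.30. Lcn2, the siderophore-binding lipocalin, had 4.33 and 6.36. Tnf differed by 0.11, and Ifng was not well above background on any array. Of the list, Csf3, Il12b and Il1a were above background on the Drp1LiKO array alone, as were 1612 over all genes. Csf3 and Il1a were at least 1.10-fold and 1.60-fold higher, and the bound of Il12b gave no fold. Il12a was on the control array alone, as were 480 over all genes, at least 3.07-fold lower in Drp1LiKO. On both untreated arrays Il12a was at background. The cytokine Il11, outside the list, was above background on the Drp1LiKO array alone, at least 16.5-fold higher.

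Among genes of inflammasomes and pyroptosis, 16 were measured, of which 2 were higher and 1 lower (12.5% and 6.25%, against 3.09% and 2.47% of all genes). Another 10 were above background on neither palmitate array, Nlrp3 among them. Casp4, the inflammatory caspase (caspase-11) that binds cytosolic lipopolysaccharide and cleaves gasdermin D, had -2.86 in control and 1.70 in Drp1LiKO hepatocytes with palmitate and -3.38 and 0.70 without. Both Drp1LiKO samples were far above both controls, by 23.7-fold with palmitate. Casp1 and Casp12 were above background on the Drp1LiKO array alone, at least 2.69-fold and 4.03-fold higher. Il18bp, the soluble inhibitor of interleukin-18, was higher by 1.40, and Il1r1, the interleukin-1 receptor, was the lower gene, at -1.16. Of 36 measured genes of the NF-kB pathway, 1 was higher (2.78%, near the 3.09% of all genes). It was the adaptor Traf1 at 1.10, which differed by -0.92 on the untreated slide. The list's median was -0.05, as over all genes, and Icam1, an adhesion molecule that NF-kB induces, differed by -0.99.

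Cell division genes were lower almost without exception. Of 60 measured, 47 were lower (78.3%, against 2.47% of all genes) and 0 higher, 59 lay below 0, and the median difference was -1.51. Ttk, the spindle checkpoint kinase, had -1.35 in control and -3.82 in Drp1LiKO hepatocytes with palmitate and -1.69 and -4.13 without, a difference of 5.55-fold. Ube2c, the ubiquitin-conjugating enzyme of the anaphase-promoting complex, had 1.38 and -0.81 (4.55-fold), with 1.41 and -0.77 on the untreated slide. In both genes the controls were high and the Drp1LiKO samples low, by nearly the same amount on each slide. Ccna2 (cyclin A2) differed by -2.12, Cdca3 by -2.08, and Birc5, the chromosomal passenger survivin, by -2.05. The kinesins Kif11 and Kif14 were above background on the control array alone, at least 3.05-fold and 2.71-fold lower in Drp1LiKO.

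DNA replication genes followed with smaller differences: 16 of 61 measured were lower (26.2%, against 2.47% of all genes), 0 higher and 60 below 0, with a median of -0.75. The replication initiation factor Mcm10 differed by -1.76 and the exonuclease Exo1 by -1.74. E2f7, an atypical E2F repressor active late in S phase, was among the 15 most negative at -2.65, but its other measured probe gave 0.11, so its probes disagree. Cell cycle inhibitors, G1 cyclins and apoptosis genes had 1 of 40 higher (2.5%, near the 3.09% of all genes) and 0 lower, around -0.09. The gene past 2-fold was Bcl2a1d, an anti-apoptotic BCL2 relative whose paralogs its probe may also read, at 2.51. Ccnd2 (cyclin D2) differed by -0.90 and the death receptor Fas by -0.89. The 2 other measured Fas probes gave -0.54 and 0.39, so its probes disagree.

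Markers of other liver cells were part of the higher genes, in a preparation enriched for hepatocytes. Of 31 macrophage markers, 14 were measured on both arrays, of which 10 were higher (71.4%, against 3.09% of all genes) and 0 lower with a median of 1.65. Another 11 were above background on the Drp1LiKO array alone, and 6 on neither (Cd163, Cd86, Cx3cr1, Mrc1, Timd4 and Vsig4). Over all genes, 1612 were on the Drp1LiKO array alone and 480 on the control array alone. Adgre1, which encodes the F4/80 antigen, had -2.25 in control and -0.15 in Drp1LiKO hepatocytes with palmitate and -3.39 and -0.95 without. The signalling adaptors Tyrobp and Fcer1g were higher by 2.24 and 2.34, Aif1 by 2.30, and the complement subunits C1qa, C1qb and C1qc at least 3.36-fold, 4.59-fold and 6.93-fold. The log2 of the mean linear signal over the 14 measured markers was 1.60 in control and 2.27 in Drp1LiKO.

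Of 30 sinusoidal endothelial markers, 17 were measured, of which 11 were higher (64.7%, against 3.09% of all genes) and 0 lower, with a median of 1.06. Another 6 were above background on the Drp1LiKO array alone, as were 1612 over all genes. Tek was on the control array alone, as were 480 over all genes, and Clec4g, F8, Gpr182, Vwf, Wnt2 and Wnt9b were on neither. Cd34 was higher by 2.53, the phosphatase Ptprb by 2.02, VE-cadherin (Cdh5) by 1.91 and the VEGF receptor Kdr by 1.75, and the log2 of the mean linear signal was -0.68 in control and 0.08 in Drp1LiKO. Stellate cell and matrix genes were mixed, with 7 of 23 measured higher and 2 lower (30.4% and 8.70%, against 3.09% and 2.47% of all genes). A further 12 were above background on the Drp1LiKO array alone, among them the collagens Col3a1, Col6a3 and Col6a1 at least 4.60-fold, 2.62-fold and 2.52-fold higher, 1 (Fbln1) was on the control array alone, and 15 were on neither, Lrat, Des and Pdgfra among them. Dcn, the collagen-binding proteoglycan decorin, had -0.55 in control and 3.49 in Drp1LiKO with palmitate and -1.26 and 2.94 without, and Col1a2 was higher by 2.44. The collagen cross-linking enzyme Lox and the metalloproteinase inhibitor Timp2 went the other way, by -2.46 and -2.69, so the list held differences in both directions, more of them on the higher side. The log2 of its mean linear signal was 4.55 in control and 4.49 in Drp1LiKO.

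Cholangiocyte markers had 0 of 6 measured past 2-fold (median -0.40), with Epcam and Cftr on neither array. Lymphocyte markers had 0 of 4 (median -0.21), with 12 on neither, while the B cell genes Cd79a and Ms4a1 were above background on the Drp1LiKO array alone, at least 3.11-fold and 1.38-fold higher. Neutrophil markers had 1 of 3 higher (33.3%, against 3.09% of all genes), S100a8 at 2.39, whose probe was dim on both untreated arrays. The other measured markers, Csf3r and Elane, differed by 0.06 and 0.04. Ly6g was above background on the Drp1LiKO array alone, at least 2.67-fold higher, and 8 markers were on neither array, S100a9 and Mpo among them. Over all genes, 1612 were on the Drp1LiKO array alone. Hepatocyte markers had 5 of 18 higher (27.8%, against 3.09% of all genes) and 0 lower (median 0.32), with a log2 mean linear signal of 6.67 in control and 6.73 in Drp1LiKO. Markers of macrophages and endothelium thus differed together with the interferon, MHC, chemokine and cytokine genes above, and their part in those results was not tested.

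**Figure D3:**
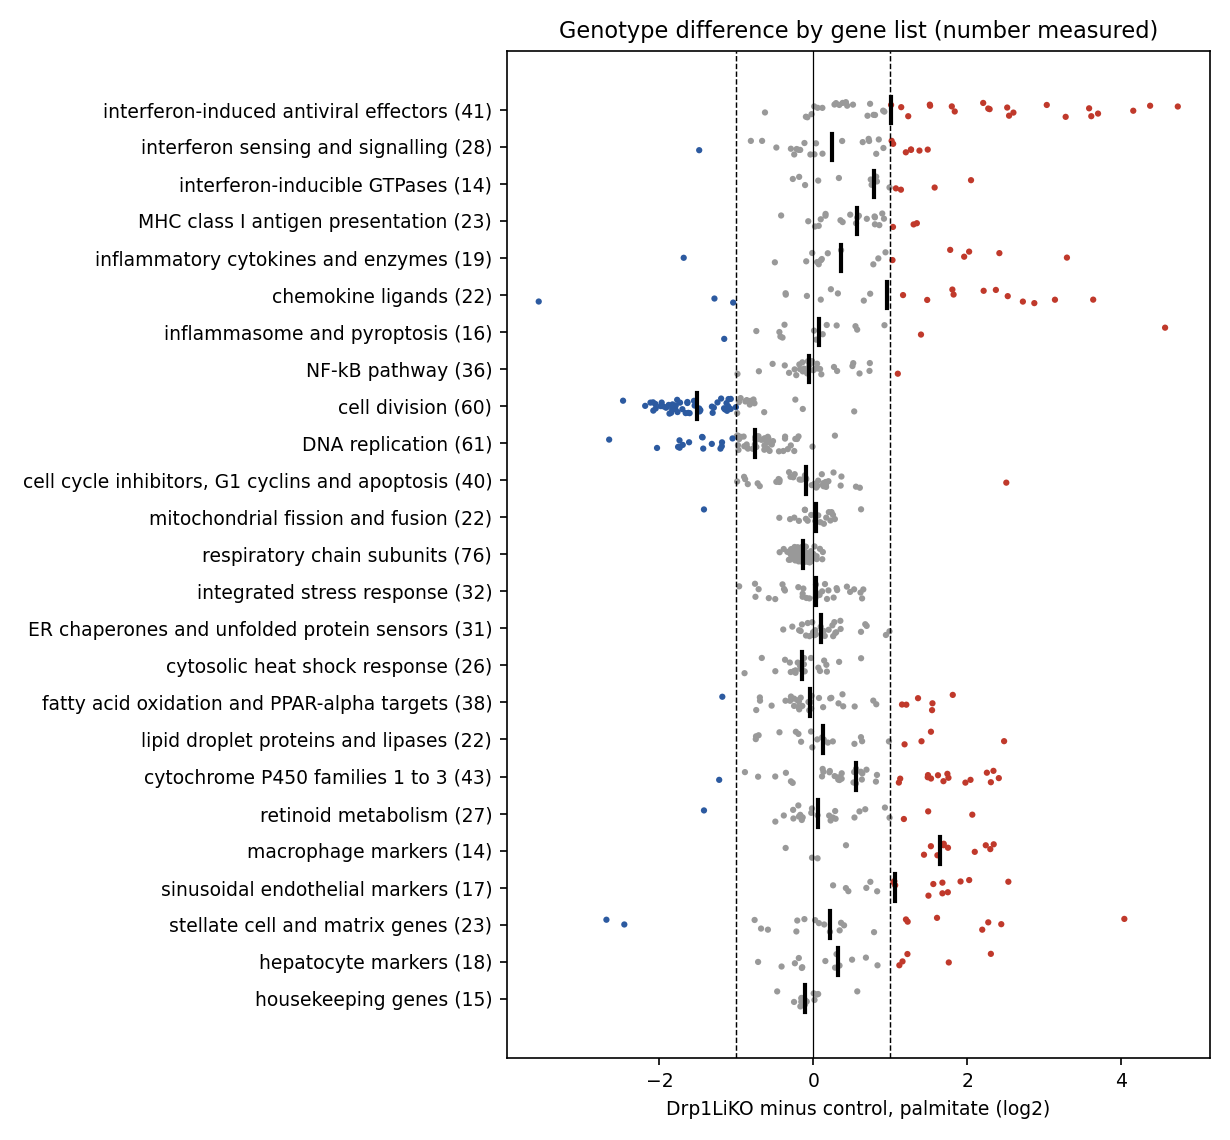
Log2 difference of Drp1LiKO minus control with palmitate (x axis) for the measured members of 25 gene lists; each dot is 1 gene, red at 1 or above, blue at -1 or below, and the black bar is the list's median. Interferon effectors (median 1.01), macrophage markers (1.65) and endothelial markers (1.06) lie to the right and cell division genes (-1.51) to the left. Medians near 0 depend on the scaling, since those of the inflammasome, ER, lipid droplet and retinoid lists shown turned negative when arrays were centred on their medians.

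Mitochondrial and stress genes stayed near the middle of all genes. None of 76 measured respiratory chain subunits passed 2-fold, but 69 were below 0, with a median of -0.14 against -0.05 over all genes and a range from -0.44 to 0.12. Their most negative difference was that of Ndufa5, a subunit of complex I, with 6.21 in control and 5.77 in Drp1LiKO. Of 26 genes of mitochondrial unfolded protein handling and quality control, 1 was higher (3.85%, near the 3.09% of all genes). It was the biogenesis coactivator Ppargc1a at 1.27, and the mitophagy receptor Bnip3 differed by 0.73. The integrated stress response list had 0 of 32 past 2-fold around a median of 0.03. Within it Chac1, Pck2 and Psat1, known ATF4 targets, were at -0.71, -0.75 and -0.76 and the hormone Fgf21 at -0.96, all on the lower side and short of 2-fold. Ddit3 (CHOP) was at 0.65, and its other measured probe gave 0.19.

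Endoplasmic reticulum chaperones and unfolded protein sensors also had 0 of 31 past 2-fold, with a median of 0.10 that became -0.05 when arrays were centred on their medians. The chaperone Hyou1 and the disulfide isomerase Pdia4 were nearest to 2-fold, at 0.99 and 0.94. The 2 other measured Hyou1 probes gave 0.55 and 0.62. Of 26 genes of the cytosolic heat shock response 0 passed 2-fold, with a median of -0.15. The inducible Hsp70 genes Hspa1a and Hspa1b, near-identical copies that probes may not separate, differed by 0.17 and -0.17. Antioxidant and metal-handling genes had 0 of 35 higher and 1 lower (2.86%, near the 2.47% of all genes). Hmox1, the heme-degrading enzyme heme oxygenase 1, differed by 0.34 with palmitate, at 4.43 and 4.77, although the untreated samples stood apart at 3.20 in control and 0.36 in Drp1LiKO. The genotypes were thus close on the palmitate slide and far apart on the untreated one.

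Lists of fatty acid handling had medians near 0 but held higher genes, 18.2% of lipid droplet genes and 15.8% of fatty acid oxidation and PPAR-alpha target genes against 3.09% of all genes. Hilpda, a lipid droplet protein that inhibits the triglyceride lipase ATGL, had 2.12 in control and 4.59 in Drp1LiKO hepatocytes with palmitate and 2.48 and 4.61 without, 5.57-fold higher with palmitate. It was the largest of 4 higher genes among 22 measured lipid droplet proteins and lipases, whose median was 0.12 and became -0.02 with arrays centred on their medians. The other 3 were Cidea, a droplet-fusion protein, at 1.53, the lipase Ces1d at 1.40 and the droplet enzyme Hsd17b13 at 1.18. Fatty acid uptake and activation had 2 of 22 higher (9.09%), among them the transporter Slc27a1 at 1.08, and Acsl1 and Acsl4, which activate long-chain fatty acids, differed by -0.17 and 0.42. Cd36, a fatty acid translocase that macrophages and endothelium also express, was above background on the Drp1LiKO array alone, at least 3.13-fold higher.

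Fatty acid oxidation and PPAR-alpha target genes had 6 of 38 higher and 1 lower, around a median of -0.04. Pdk4, which blocks pyruvate dehydrogenase, was higher by 1.81, the thioesterase Acot1 by 1.76 and the omega-hydroxylases Cyp4a12b, Cyp4a12a and Cyp4a10 by 1.55, 1.54 and 1.36, of which Cyp4a12a and Cyp4a12b may share probes. The carrier Fabp1 differed by 0.65. Of 46 genes of sterol, fatty acid and triglyceride synthesis, 3 were higher (6.52%, against 3.09% of all genes). They were Dgat2, the last enzyme of triglyceride synthesis, with 3.53 in control and 4.66 in Drp1LiKO, Thrsp at 1.05 and Acacb at 1.01, whose other probe gave -0.17. Elovl2, an elongase of polyunsaturated fatty acids, differed by -0.99.

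Retinoid metabolism had 3 of 27 measured genes higher and 1 lower (11.1% and 3.70%, against 3.09% and 2.47% of all genes). Its largest differences were in genes above background on 1 array alone. Cyp26a1, which oxidizes retinoic acid, had the largest lower bound of any named gene, at least 28.3-fold higher: its measured signal was -6.02 in control, not well above background, and 0.65 in Drp1LiKO hepatocytes with palmitate, against -1.68 and 1.13 on the untreated slide where both were above background. The palmitate control was thus the sample that stood apart. Cyp26b1 was at least 15.6-fold higher, with -4.75 and -0.21. Rarb, the retinoic acid receptor beta, had -1.83 in control and 0.23 in Drp1LiKO with palmitate and -0.43 and 0.39 without, again with the palmitate control lowest. Dhrs3, which reduces retinaldehyde to retinol, was higher by 1.49 and Adh1, an alcohol dehydrogenase, by 1.18. Aldh1a1, which makes retinoic acid, was lower, with 5.95 in control and 4.53 in Drp1LiKO.

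Cytochrome P450 genes of families 1 to 3, which oxidize drugs and steroids, had 15 of 43 measured genes higher and 1 lower, around a median of 0.56. These shares were 34.9% and 2.33%, against 3.09% and 2.47% of all genes. The Cyp3a genes were the largest, with Cyp3a16 at 2.41, Cyp3a41a at 2.34, Cyp3a11 at 2.31 and Cyp3a59 at 2.25, although these paralogs are similar enough for their probes to share targets. Cyp3a11 had 0.18 in control and 2.49 in Drp1LiKO hepatocytes with palmitate and 0.60 and 2.83 without, and Cyp2f2 had 4.15 and 5.84. Nr1i3, the constitutive androstane receptor that induces several P450 genes, was higher by 1.27. Conjugating enzymes had 2 of 41 higher (4.88%, near the 3.09% of all genes), the estrogen sulfotransferase Sult1e1 at 2.29 (1.21 on the untreated slide) and Ugt1a10 at 1.77. Among 26 bile acid genes 4 were higher (15.4%) and 0 lower. Abcb1a, an efflux pump of the MDR1 type, had -1.63 in control and 0.15 in Drp1LiKO with palmitate but -1.20 and -1.67 without, so its difference of 1.78 stood on the palmitate slide alone. Akr1c6 was higher by 1.43 and the uptake transporter Slco1b2 by 1.19, while the bile acid receptor Nr1h4 (FXR) differed by -0.99. The other measured probe of Nr1h4 gave -0.29.

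Genes of gluconeogenesis, glycolysis, the urea cycle and zonation had 7 of 32 higher and 1 lower (21.9% and 3.1%, against 3.09% and 2.47% of all genes). Hal, the histidine ammonia-lyase, was higher by 2.44, Arg1, the arginase of the urea cycle, by 1.86, and the hexokinase Hk3, which is mainly a myeloid enzyme, by 1.79. Tdo2 and Tat, which degrade tryptophan and tyrosine, were higher by 1.16 and 1.22. Apolipoprotein and lipoprotein assembly genes had 5 of 30 higher and 1 lower (16.7% and 3.33%). Among the higher were the sterol exporter Abcg1 at 2.09, the interferon-responsive Apol9b and Apol9a at 1.60 and 1.53, whose probes may not separate them, and Apoa4 at 1.36. Acute phase and complement genes had 3 of 45 higher and 4 lower (6.67% and 8.89%, against 3.09% and 2.47% of all genes): properdin (Cfp) was higher by 1.46, while Steap4, a metalloreductase, differed by -1.82 and Hamp, the iron hormone hepcidin, by -1.11. Among 45 hepatocyte transcription factors 3 were higher (6.67%), the clock output factor Dbp at 1.48, Nr1i3 at 1.27 and Klf15 at 1.08.

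Hormone and growth factor receptors had 0 of 40 higher and 4 lower (10%, against 2.47% of all genes). Avpr1a, the vasopressin receptor of hepatocytes, had 1.88 in control and -1.27 in Drp1LiKO hepatocytes with palmitate and 1.35 and -2.02 without, 8.86-fold lower with palmitate. The receptor tyrosine kinases Erbb2 and Fgfr2 differed by -1.29 and -1.14, and Il1r1 was the other. Igf1, the main circulating growth factor that liver makes, had 5.93 and 4.86, while Igfbp6, an IGF-binding protein, had -1.15 and -4.20 (8.27-fold lower). The 2 other measured Igf1 probes differed by -0.56 and -0.49, short of 2-fold. The IGF list held 10 measured genes, 1 higher (10%), the RNA-binding protein Igf2bp2 at 1.10, and 2 lower (20%). Igf2bp1 was above background on the control array alone, at least 7.15-fold lower in Drp1LiKO. Of 26 biliary and YAP target genes 2 were higher and 3 lower (7.69% and 11.5%, against 3.09% and 2.47% of all genes). Their median was -0.37, and 20 of the 26 lay below 0. The higher genes were the keratin Krt23 at 2.21 and the EGF receptor ligand Areg at 1.10, and the most negative was Nppb at -3.35. Of 36 AP-1 and immediate early genes 2 were higher and 2 lower (5.56% each). They were the phosphatases Dusp4 at 1.04 and Dusp6 at -1.09, the protease Plau at 1.24 and the kinase Sgk1 at -1.10.

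Nppb, from the biliary and YAP list, and other genes were also among the 15 most negative. Nppb, which encodes brain natriuretic peptide, had 0.51 in control and -2.83 in Drp1LiKO hepatocytes with palmitate, and its other probe differed by -3.41. Elmod1 had 0.41 and -2.87, and Mboat1, a lysophospholipid acyltransferase, 1.08 and -1.48. Pbp2 had 2.55 and 0.01, R3hdml 0.28 and -2.32 and Bhlhb9 -1.92 and -4.41. Each of these genes was lower in both Drp1LiKO samples than in both controls. On the higher side, Ly6a and Ly6c2, GPI-anchored surface antigens of blood and endothelial cells whose paralogs may share probes, were higher by 3.41 and 3.37. Gapdh, the glycolytic enzyme used as a reference gene, had 8.97 and 8.86, and none of 15 housekeeping genes passed 2-fold (median -0.11).

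Genes above background on 1 palmitate array alone give bounds and not differences, since the dim side was set no lower than the lowest signal counted as well above background on that array. There were 1612 such genes on the Drp1LiKO array, 289 of them at least 2-fold higher, and 480 on the control array, 237 of them at least 2-fold lower in Drp1LiKO. For 416 of the 1612 and 0 of the 480 the bound gave no fold. The Drp1LiKO array had more probes well above background, 27294 (48.2%) against 25307 (44.7%) of 56605, and no spot was saturated. Besides Cyp26a1, Cyp26b1 and Il11, the largest bounds among genes with a symbol on the higher side were Slfn8, an interferon-induced Schlafen gene, at least 19.2-fold, and Oas2. On the lower side those of genes with a symbol were Bst1, an ectoenzyme that makes cyclic ADP-ribose, at least 8.17-fold, Igf2bp1, the signalling factor Fgf13 at least 6.69-fold, the potassium channel Kcnk7 at least 6.63-fold and the synaptic organizer Cbln3 at least 6.47-fold. In untreated hepatocytes of either genotype Kcnk7 and Cbln3 were at background.

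Most of the genotype difference on the palmitate slide was present on the untreated slide too, in other samples of the same genotypes. Whether the samples of a genotype came from the same animals or cell preparation was not given in the sources used here. Among 16611 genes well above background on all 4 arrays, 491 were higher with palmitate (2.96%) and 660 without (3.97%), and 397 (2.39%) and 539 (3.24%) were lower, so that 5.35% and 7.22% differed in either direction. Of the 491, 477 had the same sign on the untreated slide and 391 passed 2-fold there, which is 79.6% of the 491 and 59.2% of the 660. Of the 397, 387 had the same sign and 287 passed 2-fold, 72.3% of the 397 and 53.2% of the 539. List medians over genes measured on all 4 arrays had the same sign on both slides in the groups that differed most. They were 0.97 with palmitate and 1.25 without for 40 interferon effectors, -1.48 and -1.65 for 59 cell division genes, and 0.56 and 0.50 for 43 P450 genes. Those of macrophage and endothelial markers were 1.65 and 2.17, and 1.06 and 1.31. The exceptions named above were Abcb1a, Traf1, Rarb and Sult1e1, larger with palmitate, and Hmox1, at 0.34 and -2.83. Further exceptions were St8sia3, a sialyltransferase, and Lamp5, at -2.87 and -2.27 with palmitate but -0.46 and 0.23 without. In Drp1LiKO with palmitate St8sia3 and Lamp5 were dim, at -4.31 and -4.19, where the lowest signal well above background was -4.52. Lamp5 was also dim untreated, at -4.18 in control and -3.96 in Drp1LiKO. None of these gaps between slides was tested, because each group is 1 array.

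**Figure D4:**
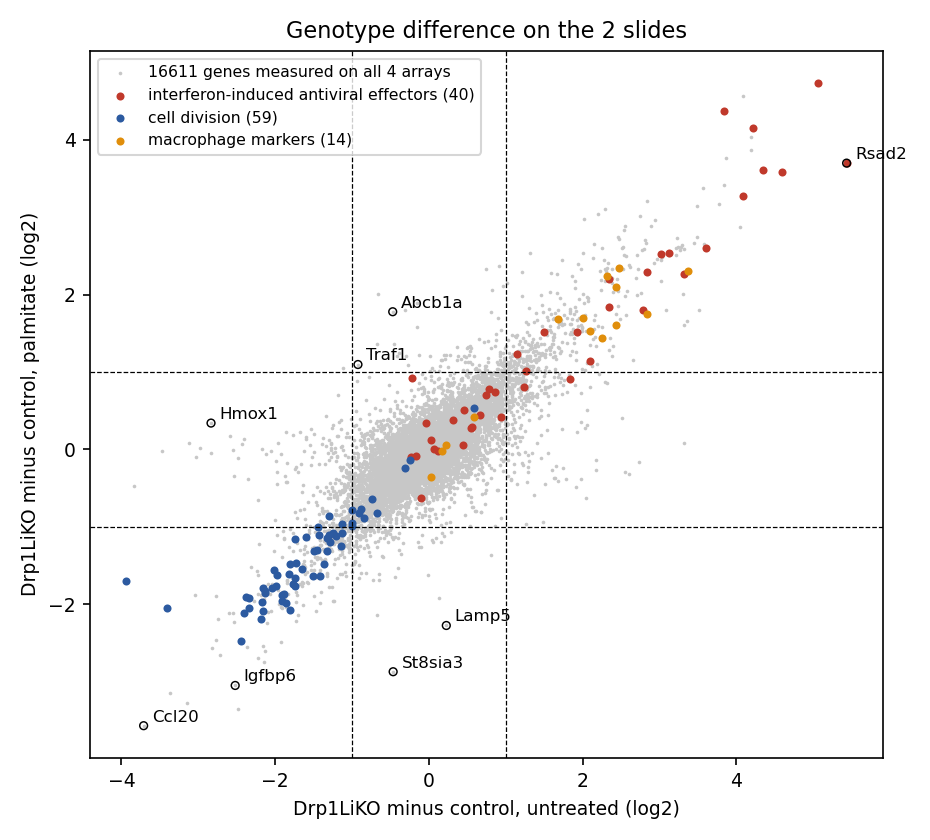
Log2 difference of Drp1LiKO minus control on the untreated slide (x axis) and on the palmitate slide (y axis) for 16611 genes well above background on all 4 arrays; each point is 1 gene. Rsad2, Ccl20 and Igfbp6 differ in the same direction on both slides, whereas Hmox1 (-2.83 and 0.34), Abcb1a (-0.47 and 1.78), Traf1 (-0.92 and 1.10), Lamp5 (0.23 and -2.27) and St8sia3 (-0.46 and -2.87) lie far from the diagonal.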

How the data were processed

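Gene expression was measured with 1-colour Agilent 60-mer microarrays in 4 samples of primary mouse hepatocytes, 1 array per group, of which the 2 palmitate arrays are compared here. Per the file headers, the authors' scanner files hold a background-corrected, unnormalized intensity per spot from Feature Extraction 10.7.1.1 with mm9 probe coordinates, whereas the submitters' processing notes name version 9.5.1.1. The labels and the study's methods also name different RNA kits. The deposited value table holds linear intensity values with equal column medians (18.1), taken as quantile-normalized, and served as an alternative after log2. The untreated control is labelled as sharing its raw data with a sample of another series.

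Intensities were scaled by each array's 75th percentile over non-control spots (424 in control and 468 in Drp1LiKO with palmitate) and taken to log2, spots of 1 probe were averaged, and each gene was read from its highest probe over the 4 arrays, kept where well above background on both palmitate arrays. A gene dim on 1 array was given as a bound against the higher of its own signal and the lowest signal well above background there. Levels of different probes were not compared. With 1 array per group no model was fitted, and 2-fold stood in place of a test.

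The comparison, the 43 gene lists and the named genes were chosen with earlier results of these data known. Named genes were the 15 largest positive and 15 largest negative differences among genes with a symbol, up to 4 members of each list by size of difference, the 5 largest bounds in each direction, and 15 genes the study discussed. Isg15 and members of lists above background on 1 array alone were named after their values were seen. Of 12216 such symbols, 11712 are current in RefSeq, 406 matched a synonym and 98 did not match. Alternatives were normexp background correction (limma 3.58.1, R 4.3.3), the value table, centring on the median, 3 other filters and 2 other probe rules. Scripts (Python 3.11.15, pandas 2.3.3, numpy 2.4.6) were tested on simulated data.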

Additional observations from a re-analysis of the deposited data

Results flagged for a closer look

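Genotype differences that took opposite signs on the slides were looked for among genes past 2-fold on both slides, and among gene lists whose medians lay further from 0 than 0.0514 (log2), the spot SD of a difference, on both slides. The gene 4930405O22Rik differed by 1.06 with palmitate and by -1.12 untreated (log2, Drp1LiKO minus control). The median over the 10 measured IGF ligands and binding proteins was 0.28 with palmitate and -0.09 untreated. Medians of other lists that lay nearer to 0 on a slide, such as those of bile acid genes (0.13 and -0.043) and of fatty acid oxidation (-0.041 and 0.075), also took opposite signs. Each value rests on 1 array per group, and none of these differences between slides was tested.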

How the results depend on the processing

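No paired analysis was possible because each group is 1 array, and slide could not be a block because both palmitate arrays lie on 1 slide; leaving out a replicate leaves no comparison. The counts of 519 higher and 414 lower genes became 319 and 207 with normexp background correction, 494 and 439 with the value table, and 403 and 560 with arrays centred on their medians. They were 1364 and 799 with a probe above background on either palmitate array, 2197 and 1739 with no filter, 491 and 397 with all 4 arrays required, 513 and 398 with the mean of probes and 574 and 442 with the lowest probe. Without genes whose spot lay beside 2 or more of 24 neighbouring spots lit on the same array alone, an alternative chosen after seeing the data, they were 459 and 379.

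The Dnm1l difference of -1.42 was -1.35 with normexp and -1.57 with median centring. The interferon effector median of 1.01 was 0.95 with normexp, 0.86 with median centring, 1.51 with either array, 1.43 with no filter and 0.92 with the mean of probes. The chemokine median of 0.95 was 0.81 with median centring, 0.74 with either array, 0.66 with all 4 arrays and 0.32 with no filter. The cell division median of -1.51 was -1.06 with normexp, -1.66 with median centring, -1.61 with either array, -1.62 with no filter and -1.42 with the lowest probe. The macrophage median of 1.65 was 1.34 with normexp, 1.51 with median centring, 2.10 with either array, 1.75 with no filter, and 1.72 with the mean of probes and with the lowest probe. None of these medians changed sign under the alternatives run.

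With median centring the medians of inflammasome genes (-0.065), mitochondrial quality control (-0.075), ER chaperones (-0.049), lipid droplet proteins (-0.021), retinoid metabolism (-0.090), bile acid genes (-0.019) and neutrophil markers (-0.084) turned negative, since that centring lowers every difference by the same amount. With the lowest probe, the NF-kB median became 0.017, E2f7 became 0.11 and Acacb became -0.17, since these are other probes. Of 125 named genes past 2-fold, 123 kept their sign with the lowest probe, and all that had a value kept it under the other settings. Of the 125, 108 stayed past 2-fold with normexp, 123 with the value table, 113 with median centring and 120 with the lowest probe. Without replicate arrays, variation between cultures or animals is not measured, and genes near background were the ones most often past 2-fold.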
